A study of Mus musculus with 9 samples.

Results

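The unfolded protein response and endoplasmic reticulum (ER) folding genes are described here as 42 mouse genes, found by NCBI gene number among the 18220 rows of the table, across the ileal intestinal stem cell niche of 3 groups of mice. All 42 were present: 6 sensors and transcription factors, 23 chaperones, folding enzymes and translocon subunits, 9 genes of ER-associated degradation and 4 targets of Atf4. The niche, the crypt base where stem cells lie among Paneth cells, was cut out by laser microdissection, and its total RNA was sequenced in 9 libraries, with 3 independent samples a group. The groups were AKR mice aged 25 weeks (AKR 25 wk) and SAMP/YitFc mice aged 5 weeks (SAMP 5 wk), both described as free of inflammation, and SAMP/YitFc mice aged 25 weeks (SAMP 25 wk) with severe ileitis that resembles Crohn's disease. All mice were labelled wild type, and the animals' sex was not given. SAMP 25 wk and AKR 25 wk differ in strain and ileitis together, SAMP 25 wk and SAMP 5 wk in age and ileitis together, and SAMP 5 wk and AKR 25 wk in strain and age together, so that within each comparison these effects cannot be told apart.

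Proteins that are secreted or placed in membranes are threaded into the ER through the Sec61 translocon, folded there by chaperones such as the Hspa5 product BiP, and, when folding fails, returned to the cytosol for degradation. Unfolded protein activates 3 ER membrane sensors, encoded by Ern1 (IRE1 alpha), Eif2ak3 (PERK) and Atf6. Ern1 splices Xbp1 mRNA so that it encodes an active transcription factor, Eif2ak3 slows translation and favours that of Atf4, and Atf6 is cleaved to release its own transcription factor. The response is known in the gut from Paneth and goblet cells, whose secretory load is high, and from mice without epithelial Xbp1, which lose Paneth cells and develop enteritis. The values here are FPKM (fragments per kilobase of transcript, scaled to the fragments of a library), a level per transcript length. They do not measure Xbp1 splicing, sensor phosphorylation or Atf6 cleavage.

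The DNA elements through which these factors act are shown because the genes that carry them are among the results. A promoter of 300 bases, from 250 before to 50 after the start site in RefSeq's annotation of GRCm38.p6, was at hand for 36 of the 42 genes, the others being Atf6, Hyou1, Manf, Sec61a1, Ssr2 and Derl1. The ER stress element was searched on both strands as CCAAT and CCACG with 9 bases of any kind between them. It was found in 9 of the 36 promoters (Calr, Canx, Creld2, Derl3, Dnajc3, Hsp90b1, Hspa5, Pdia6 and Syvn1), against 37 of all 27025 promoters, or 0.137%. The second form of the element, ATTGG and CCACG with 1 base of any kind between them, also searched on both strands, was found in Dnajb11 and Herpud1, and in 12 of all promoters (0.0444%). The letters TGACGTGG, the Xbp1 type unfolded protein response element, were in none of the 36 windows and in 0.714% of all. Matches in 6 genes are printed below on the strand of the gene, 5′ to 3′, with the element in capitals and the distance of its first capital from the start site. Hsp90b1 carried 2 matches. A stretch in capitals that starts with CGTGG is the element read on the other strand.
Hspa5, chr2:34772015-34772053, plus strand, 65 bp before the start: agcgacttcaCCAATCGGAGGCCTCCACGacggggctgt
Hsp90b1, chr10:86705628-86705666, minus strand, 212 bp before the start: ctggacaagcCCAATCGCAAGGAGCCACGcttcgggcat
Hsp90b1, chr10:86705523-86705561, minus strand, 107 bp before the start: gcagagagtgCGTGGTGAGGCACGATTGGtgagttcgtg
Calr, chr8:84847065-84847103, minus strand, 162 bp before the start: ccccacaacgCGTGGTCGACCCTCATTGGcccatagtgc
Canx, chr11:50325790-50325828, minus strand, 145 bp before the start: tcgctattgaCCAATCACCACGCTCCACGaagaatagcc
Derl3, chr10:75893232-75893270, plus strand, 156 bp before the start: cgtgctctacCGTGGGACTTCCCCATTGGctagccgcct
Herpud1, chr8:94386367-94386397, plus strand, 52 bp before the start: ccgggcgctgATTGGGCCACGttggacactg

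The element bound by Atf4 together with a C/EBP factor was searched as TGATGNAA. It was found in 4 of the 36 promoters (Asns, Chac1, Herpud1 and Trib3) and in 1219 of all promoters, or 4.51%. The first 3 are printed, since Asns, Chac1 and Herpud1 differed most between groups within their role lists in some comparisons. A stretch in capitals that starts with TTGCATCA is the element read on the other strand, and the Trib3 match lay after the start site.
Asns, chr6:7693215-7693242, minus strand, 23 bp before the start: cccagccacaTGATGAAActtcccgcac
Chac1, chr2:119351039-119351066, plus strand, 193 bp before the start: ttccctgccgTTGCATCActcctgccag
Herpud1, chr8:94386307-94386334, plus strand, 112 bp before the start: ccacggcgggTTGCATCAgcccgcaccc
These matches describe letters in a window, and no binding was measured.

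Spacing of the lowest FPKM values put library depth at 6980000 to 10200000 reads, an estimate, so the precision of genes near an FPKM of 1 was low. Of the 42 genes, 41 averaged an FPKM of 1 or more across the libraries and were tested among 11775 genes in all. The exception was Trib3. The tests were limma on log2(FPKM + 1), so that fold changes of low genes are understated. A gene was called at a Benjamini-Hochberg adjusted p below 0.05 over all 11775 genes. The typical gene itself shifted: over all tested genes the median log2 difference was -0.15 for SAMP 25 wk against AKR 25 wk, -0.12 against SAMP 5 wk and -0.03 for SAMP 5 wk against AKR 25 wk. AKR 25 wk replicate 2 was high in villus enterocyte markers, with a summed FPKM of 17408 over 10 enterocyte markers against 131.94 to 1580.11 in the other 8 libraries. Fabp6 alone gave 11909.3 of that sum. All of these markers but Fabp1 were highest in that library. Fabp1 was at 0.51 there and at 2.48 to 11.87 in SAMP 25 wk. In SAMP 25 wk replicate 3 Xist was at 176.75 and Y-linked Eif2s3y at 0.14, against at most 1.32 and at least 14.53 in the others. Ribosomal RNA and alpha-defensin rows took 12.2% to 33.3% of the FPKM of a library. Defining markers of the niche, Lgr5 of stem cells and Lyz1 of Paneth cells, were present in all 9 libraries, at 9.62 to 23.43 and 5435.45 to 36164.6. Lyz1 was lower in every SAMP 25 wk library (5435.45 to 9141) than in any other library (at least 15074.3). In bulk tissue, fewer cells of a type and less RNA per cell cannot be told apart.

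The ER folding programme was abundant in the niche of every group. Hsp90b1, which encodes the ER chaperone GRP94, was the most abundant member with a mean FPKM of 374 ± 101 (SD, n = 9), rank 157 of the 18220 rows by mean level. Hspa5 followed at 236, the disulfide isomerases P4hb and Pdia3 at 209.9 and 195, the lectin chaperone Calr at 182 and the translocon-associated subunit Ssr3 at 163. All of these ranked within the first 291 rows. The members together made up 0.307% to 0.537% of the FPKM of a library, lowest in SAMP 25 wk replicate 2 and highest in AKR 25 wk replicate 2. Atf6 and Xbp1 were the steadiest, with a highest library only 1.20 and 1.33 times the lowest, followed by P4hb at 1.46 times. Chac1, Derl3 and Ddit3 were the most variable of the tested members, at 7.50, 7.26 and 4.15 times.

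No member was called between SAMP 25 wk and AKR 25 wk, where 2.94% of all tested genes were. Between SAMP 25 wk and SAMP 5 wk 1 of 41 was called, Ddit3, which was higher with ileitis and age, against 1.52% of all genes (0.909% higher and 0.611% lower). No member was called between SAMP 5 wk and AKR 25 wk, against 0.552% of all genes. At an unadjusted p below 0.05 the members numbered 0, 7 and 3 in these 3 comparisons, where the share of all genes was 15.5% (4.93% higher, 10.6% lower), 16.5% (5.49% higher, 11.0% lower) and 7.47% (3.33% higher, 4.14% lower). The 7 against SAMP 5 wk were Ddit3, Dnajb9, Edem1, Edem2, Ern1 and Herpud1, which were higher in SAMP 25 wk, and Asns, which was lower. The 3 between SAMP 5 wk and AKR 25 wk were Asns and Chac1, higher in SAMP 5 wk, and Ddit3, lower. In the first comparison 35 of the 41 members had a 95% interval of the log2 fold change that lay wholly between -1 and 1, against 64.5% of all tested genes. The other 6 were Hsp90b1, Canx, Dnajb9, Syvn1, Derl3 and Chac1. The intervals lay within those bounds for 30 of 41 members against SAMP 5 wk (62.8% of all genes) and for 35 of 41 between SAMP 5 wk and AKR 25 wk (74.0%). The comparisons share libraries pairwise and are not independent of each other.

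**Figure D1:**
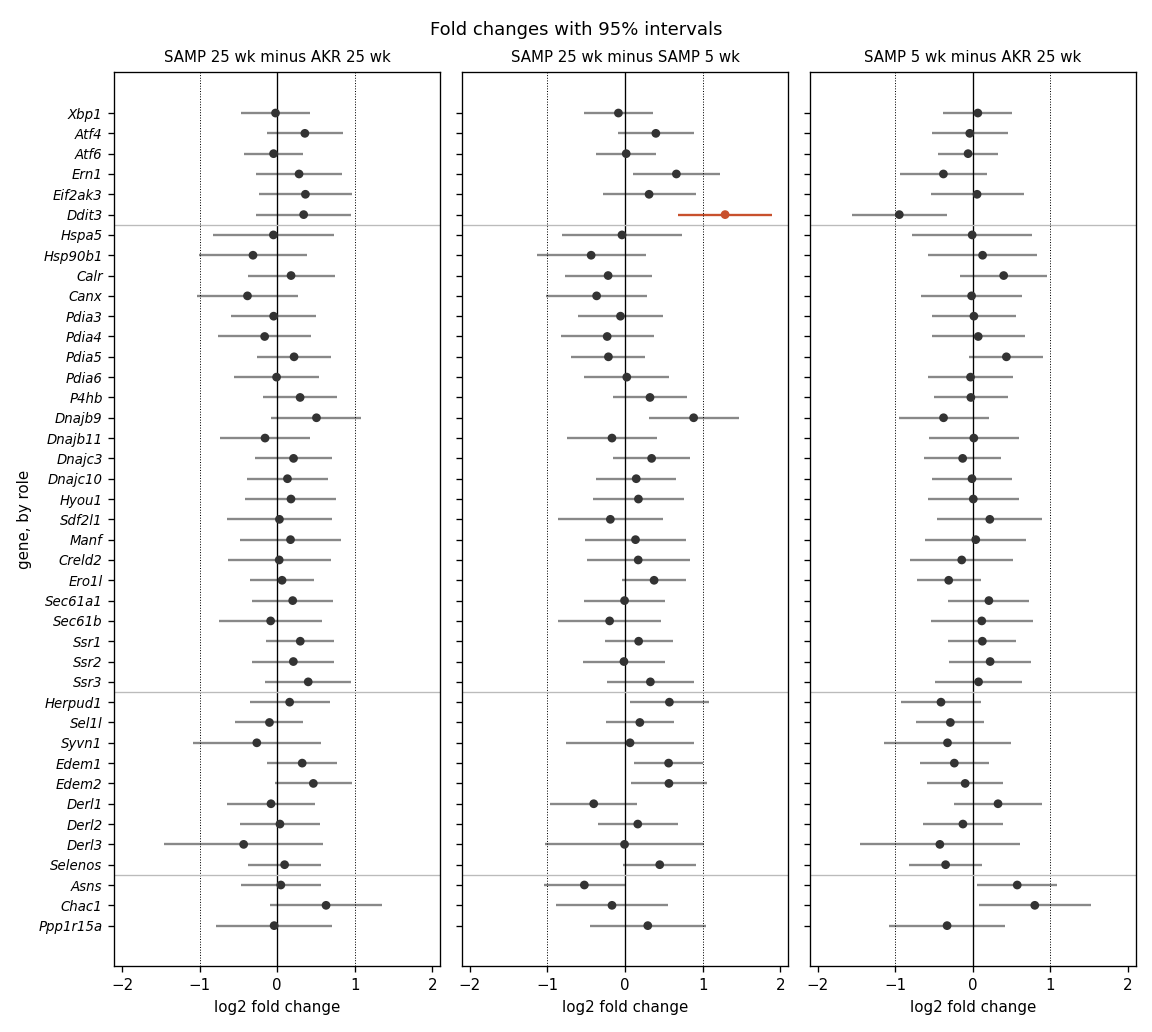
Log2 fold change (horizontal axis, log2(FPKM + 1) scale) of the 41 tested genes, in rows by role, for the 3 comparisons. Points are limma estimates, bars are 95% intervals and dotted lines stand at -1 and 1. Ddit3 against SAMP 5 wk, in orange at 1.29, is the single gene past an adjusted p of 0.05.

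Of the sensors and transcription factors, Ddit3 was the only one called in any comparison, and Xbp1 and Atf6 were nearly level. Xbp1, at chr11:5520641-5525993 of GRCm38.p6, was at an FPKM of 83.64, 103.25 and 84.27 in the AKR 25 wk libraries (replicates 1 to 3, here and below), 107.57, 81.13 and 95.33 in SAMP 5 wk and 92.02, 81.37 and 92.79 in SAMP 25 wk. The 3 groups overlapped throughout. The log2 fold change of Xbp1 in SAMP 25 wk was -0.02 ± 0.20 (SE; 95% interval -0.47 to 0.42) against AKR 25 wk and -0.09 ± 0.20 (-0.53 to 0.36) against SAMP 5 wk. Atf6 stood at 12.61, 13.75 and 12.97 in AKR 25 wk, 13.40, 11.43 and 12.77 in SAMP 5 wk and 13.12, 11.70 and 13.17 in SAMP 25 wk. Against AKR 25 wk it differed by -0.05 on the log2 scale, with an interval of -0.43 to 0.34. For both genes the intervals in all 3 comparisons stayed within 0.53 of 0.

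Ddit3 encodes CHOP, a transcription factor induced downstream of Atf4 and linked to cell death under lasting ER stress. It was at an FPKM of 6.28, 10.79 and 5.21 in AKR 25 wk, 4.67, 2.63 and 2.60 in SAMP 5 wk and 9.85, 7.63 and 10.56 in SAMP 25 wk. All 3 SAMP 5 wk libraries lay below all 6 others, and the older groups overlapped. The group means were 7.43 ± 2.96, 3.30 ± 1.19 and 9.35 ± 1.53 (SD, n = 3 each). Its log2 fold change was 1.29 ± 0.28 (SE; 95% interval 0.68 to 1.90, limma adjusted p = 0.0465) for SAMP 25 wk against SAMP 5 wk. For SAMP 5 wk against AKR 25 wk it was -0.95 ± 0.28 (adjusted p = 0.310), and for SAMP 25 wk against AKR 25 wk 0.34 ± 0.28 (adjusted p = 0.594). The call against SAMP 5 wk sat close to the threshold: it ended under 12 of 23 alternatives, over which the log2 fold change ran from 0.79 to 1.54 and the adjusted p from 0.000286 to 0.177. Leaving out a single library ended it for AKR 25 wk replicate 1 (adjusted p = 0.0720), SAMP 5 wk replicates 2 and 3 (0.177 and 0.164) and SAMP 25 wk replicates 1, 2 and 3 (0.0531, 0.0885 and 0.152).

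The other sensors were not called. Atf4 was at 108.79, 97.34 and 93.20 in AKR 25 wk, 130.20, 81.01 and 85.91 in SAMP 5 wk and 121.99, 132.12 and 129.37 in SAMP 25 wk. All SAMP 25 wk libraries lay above all AKR 25 wk libraries, while SAMP 5 wk replicate 1 lay among the SAMP 25 wk values. The log2 fold change of Atf4 was 0.36 ± 0.22 (SE, adjusted p = 0.474) against AKR 25 wk and 0.40 ± 0.22 (adjusted p = 0.406) against SAMP 5 wk. Ern1 stood at 7.36, 8.03 and 9.86 in AKR 25 wk, 8.40, 5.55 and 5.04 in SAMP 5 wk and 7.45, 13.82 and 10.75 in SAMP 25 wk, where replicate 1 lay within the range of the other groups. Ern1 differed by 0.66 ± 0.26 against SAMP 5 wk (adjusted p = 0.239) and 0.28 ± 0.26 against AKR 25 wk on the log2 scale (adjusted p = 0.633). Eif2ak3, the lowest of the sensors, was at 2.73, 4.99 and 3.79, then 5.15, 2.50 and 4.56, then 5.78, 3.92 and 5.83 in the same order of groups, which overlapped. Its fold change against AKR 25 wk was 0.36 ± 0.27 on the log2 scale (adjusted p = 0.557). The median log2 fold change of the 6 sensors and factors was 0.31 against AKR 25 wk and 0.35 against SAMP 5 wk, beside all-gene medians of -0.15 and -0.12, and over the alternatives it ran from 0.15 to 0.47 and from 0.17 to 0.56.

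**Figure D2:**
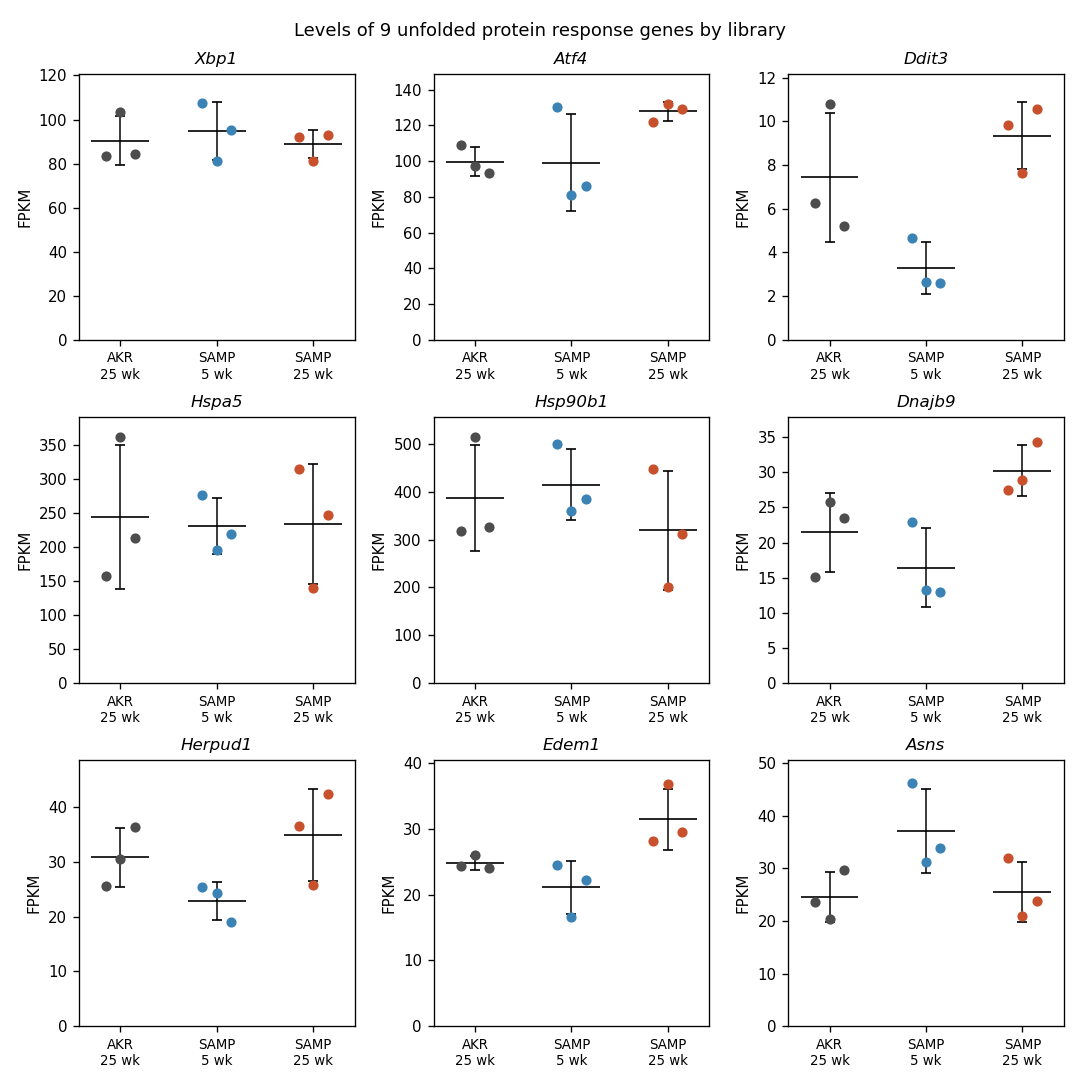
FPKM (vertical axis, from 0) of 9 genes in each library of the 3 groups. Dots are libraries, lines are group means and bars are 1 SD over 3 libraries. Ddit3 is lowest in SAMP 5 wk, and Hspa5 and Hsp90b1 spread more widely within AKR 25 wk and SAMP 25 wk than between the groups.

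None of the 23 chaperones, folding enzymes and translocon genes was called in any comparison, and Hspa5 and Hsp90b1 spread widely between libraries of a group. Hspa5, at chr2:34772090-34776529 of GRCm38.p6, was at an FPKM of 156.74, 361.67 and 213.40 in AKR 25 wk, 276.22, 196.38 and 218.77 in SAMP 5 wk and 315.29, 139.89 and 247.37 in SAMP 25 wk. The highest value was in AKR 25 wk replicate 2, the lowest in SAMP 25 wk replicate 2, and the group means were 244 ± 106, 230 ± 41.2 and 234 ± 88.4 (SD, n = 3 each). For Hspa5 the log2 fold change against AKR 25 wk was -0.05 ± 0.36 (SE; 95% interval -0.83 to 0.73). Hsp90b1 was at 318.08, 514.75 and 327.31, then 501.07, 360.89 and 384.52, then 448.70, 200.02 and 311.07, with the same highest and lowest library as Hspa5. The log2 fold change of Hsp90b1 was -0.31 ± 0.32 against AKR 25 wk (adjusted p = 0.679) and -0.44 ± 0.32 against SAMP 5 wk (adjusted p = 0.525). Without AKR 25 wk replicate 2 the log2 fold changes against AKR 25 wk became 0.28 for Hspa5 and -0.09 for Hsp90b1, and without SAMP 25 wk replicate 2 they became 0.28 and -0.01.

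Calr, the calcium-binding lectin chaperone calreticulin, was at 128.79, 213.26 and 138.62 in AKR 25 wk, 235.90, 181.75 and 203.63 in SAMP 5 wk and 212.71, 143.05 and 181.66 in SAMP 25 wk. Calr differed by a log2 fold change of 0.18 ± 0.26 for SAMP 25 wk against AKR 25 wk and 0.40 ± 0.26 for SAMP 5 wk against AKR 25 wk (adjusted p = 0.815). Pdia4, a disulfide isomerase, was at 37.18, 59.87 and 46.40, then 57.29, 43.86 and 47.58, then 58.86, 28.90 and 42.93, with overlap in every comparison. A second isomerase, Pdia5, was at 17.79, 13.71 and 21.57, then 27.19, 19.82 and 25.08, then 22.96, 19.44 and 19.00, and had the list's widest difference between SAMP 5 wk and AKR 25 wk, 0.43 ± 0.22 on the log2 scale (adjusted p = 0.709). Unlike the chaperones above, Pdia5 was lowest in AKR 25 wk replicate 2. Sdf2l1, a partner of Hspa5 and its co-chaperones, was at 27.44, 61.33 and 45.68, then 52.74, 51.07 and 45.52, then 34.68, 36.18 and 65.15, and its log2 fold changes ran from -0.19 to 0.22.

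Of this list, Dnajb9 and Ssr3 had the largest log2 fold changes for SAMP 25 wk against AKR 25 wk, neither of them called. Dnajb9 encodes ERdj4, a co-chaperone of Hspa5 known as a target of Xbp1 and as an inhibitor of the Ern1 sensor. It was at 15.07, 25.71 and 23.51 in AKR 25 wk, 22.94, 13.28 and 13.01 in SAMP 5 wk and 27.49, 28.93 and 34.31 in SAMP 25 wk. All SAMP 25 wk libraries lay above all 6 others. The log2 fold change of Dnajb9 was 0.88 ± 0.27 (SE; 95% interval 0.30 to 1.46, limma adjusted p = 0.134) against SAMP 5 wk and 0.51 ± 0.27 (-0.07 to 1.09, adjusted p = 0.393) against AKR 25 wk. Without AKR 25 wk replicate 1, its lowest library of that group, the second was 0.28 (adjusted p = 0.738). Ssr3 was at 136.64, 162.86 and 131.20, then 207.52, 116.71 and 140.36, then 227.99, 184.05 and 160.42, with a log2 fold change of 0.40 ± 0.26 against AKR 25 wk (adjusted p = 0.482). SAMP 25 wk replicate 3 lay just below the highest AKR 25 wk library. Ssr1 was the other gene of the list whose SAMP 25 wk libraries all lay above AKR 25 wk, at 21.27 to 29.55 against 16.99 to 20.53. The median log2 fold change of the 23 genes was 0.13 against AKR 25 wk, -0.01 against SAMP 5 wk and 0.01 for SAMP 5 wk against AKR 25 wk. None of these 3 medians kept its sign: over 22 alternatives they ran from -0.06 to 0.36, from -0.12 to 0.27 and from -0.30 to 0.24. Rescaling FPKM without ribosomal RNA and defensin rows gave -0.05, 0.13 and -0.30, and leaving out AKR 25 wk replicate 1 gave -0.06 for the first.

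The genes of ER-associated degradation were not called either, and those whose libraries did not overlap stood higher in SAMP 25 wk than in SAMP 5 wk. Herpud1, which helps assemble the Syvn1 and Sel1l ubiquitin ligase at the ER membrane, was at 25.64, 30.54 and 36.34 in AKR 25 wk, 25.45, 24.28 and 18.94 in SAMP 5 wk and 36.59, 25.81 and 42.42 in SAMP 25 wk. The lowest SAMP 25 wk value was only just above the highest SAMP 5 wk value. On the log2 scale Herpud1 was higher than in SAMP 5 wk by 0.57 ± 0.24 (SE, adjusted p = 0.266). Edem2, which trims mannose from misfolded glycoproteins, was at 5.94, 9.22 and 8.55, then 8.67, 6.59 and 6.50, then 9.06, 13.32 and 11.38, with log2 fold changes of 0.47 ± 0.23 against AKR 25 wk (adjusted p = 0.352) and 0.57 ± 0.23 against SAMP 5 wk (adjusted p = 0.255). Edem1, of the same family, ranged over 24.10 to 26.09 in AKR 25 wk, over 16.68 to 24.53 in SAMP 5 wk and over 28.12 to 36.82 in SAMP 25 wk, so that SAMP 25 wk lay above all 6 other libraries. Its log2 fold change was 0.56 ± 0.21 against SAMP 5 wk (adjusted p = 0.220) and 0.32 ± 0.21 against AKR 25 wk (adjusted p = 0.482). Selenos, a selenoprotein of the ER membrane, also had no overlap against SAMP 5 wk, at 39.30 to 56.11 against 29.87 to 36.62.

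Sel1l, the scaffold of that ligase, was at 23.03, 33.43 and 29.53, then 26.38, 21.99 and 20.93, then 27.20, 26.95 and 25.02, and overlapped in all comparisons. Derl3, a derlin of the ER membrane that is high in secretory cells, was at 7.30, 6.68 and 4.94 in AKR 25 wk, 11.03, 4.15 and 1.52 in SAMP 5 wk and 2.81, 3.77 and 7.47 in SAMP 25 wk. It was the most variable gene of its list, and its log2 fold change of -0.43 ± 0.47 against AKR 25 wk had an interval from -1.46 to 0.60. The summed FPKM of 8 plasma cell markers spanned 144.7 to 295.74 in AKR 25 wk, then 74.1 to 221.73 in SAMP 5 wk, then 71.56 to 86.49 in SAMP 25 wk. Prdm1 was the marker called lower against AKR 25 wk, and Tnfrsf17 was listed at 0 in SAMP 5 wk replicate 3. The marker sum was 221.73 in SAMP 5 wk replicate 1, where Derl3 was highest, and 85.87 in SAMP 25 wk replicate 3, where Derl3 was next highest. It was highest, at 295.74, in AKR 25 wk replicate 1, where Derl3 was at 7.30. In SAMP 5 wk replicate 3, where Derl3 was lowest, it was 74.1. The part of plasma cell RNA in the Derl3 values was not tested. The median log2 fold change of the 9 genes was 0.04 against AKR 25 wk, 0.19 against SAMP 5 wk and -0.29 for SAMP 5 wk against AKR 25 wk. Over the alternatives the first changed sign (-0.13 to 0.30), while the second ran from 0.13 to 0.52, highest without SAMP 5 wk replicate 1, and the third from -0.60 to -0.18.

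Against SAMP 5 wk the genes without overlap were 6 of 41, all higher in SAMP 25 wk: Ddit3, Dnajb9, Herpud1, Edem1, Edem2 and Selenos. In all tested genes the share without overlap was 20.2%, with 7.95% higher and 12.3% lower. Against AKR 25 wk they were 4 of 41, all higher: Atf4, Dnajb9, Ssr1 and Edem1, where 19.2% of all genes had no overlap, 6.6% higher and 12.6% lower. Between SAMP 5 wk and AKR 25 wk they were 4 of 41, with Asns higher and Ddit3, Ero1l and Herpud1 lower in SAMP 5 wk, against 14.4% of all genes, 6.11% higher and 8.33% lower. Ero1l encodes the oxidase that recharges the disulfide isomerases. Its range was 13.12 to 16.84 in SAMP 5 wk and 17.17 to 19.42 in AKR 25 wk, with a log2 fold change of -0.31 ± 0.19 (SE, adjusted p = 0.786).

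None of the 3 tested Atf4 targets was called in any comparison, and Asns was highest in SAMP 5 wk, where Ddit3 was lowest. Asns, asparagine synthetase, was at 23.60, 20.47 and 29.76 in AKR 25 wk, 46.33, 31.30 and 33.87 in SAMP 5 wk and 31.90, 20.95 and 23.78 in SAMP 25 wk. All SAMP 5 wk libraries lay above AKR 25 wk, and SAMP 25 wk replicate 1 lay within the SAMP 5 wk range. Its log2 fold change was 0.57 ± 0.24 for SAMP 5 wk against AKR 25 wk (adjusted p = 0.599) and -0.52 ± 0.24 for SAMP 25 wk against SAMP 5 wk (adjusted p = 0.298). Chac1, which degrades glutathione, was at 1.48, 0.52 and 3.36, then 3.08, 3.32 and 3.90, then 3.19, 2.55 and 3.09, and its log2 fold change for SAMP 25 wk against AKR 25 wk was 0.63 ± 0.33 (95% interval -0.09 to 1.35, adjusted p = 0.392). That value depended on the AKR 25 wk libraries, being 0.26 without replicate 2 (adjusted p = 0.742) and 1.02 without replicate 3 (adjusted p = 0.0978), which lay among the SAMP values. The log2 fold change of Chac1 for SAMP 5 wk against AKR 25 wk was 0.80 ± 0.33 (adjusted p = 0.595). Ppp1r15a, which restores translation by targeting a phosphatase to eIF2 alpha, was at 0.89, 2.71 and 2.35, then 1.74, 1.48 and 0.73, then 1.01, 2.76 and 1.86, with overlap throughout. Trib3, a pseudokinase induced late in the response, was near the limit of detection and was not tested. It was at 0, 0.11 and 0.06 in AKR 25 wk, 0.14, 0 and 0.44 in SAMP 5 wk and 0.58, 0.13 and 0.24 in SAMP 25 wk.

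Across the libraries of each group, the median level of the chaperone list varied. The median deviation of the 23 chaperone, folding and translocon genes from their mean over 9 libraries, in log2(FPKM + 1), was -0.27, 0.26 and -0.06 in AKR 25 wk, 0.30, -0.21 and -0.01 in SAMP 5 wk and 0.31, -0.23 and 0.03 in SAMP 25 wk. Each group thus held a high and a low library by this median. Single genes departed from it, among them Pdia5 at -0.54 in AKR 25 wk replicate 2, Sdf2l1 at -0.37 in SAMP 25 wk replicate 1 and Dnajb9 at 0.41 in SAMP 25 wk replicate 2. The median deviations of the 11 members with an ER stress element of either form were -0.28, 0.51 and -0.05, then 0.30, -0.20 and -0.05, then 0.27, -0.31 and 0.13. In the 24 tested members with a promoter and neither form they were -0.18, 0.16 and -0.00, then 0.18, -0.25 and -0.18, then 0.21, 0.03 and 0.06. All tested genes had medians of 0.12, 0.04 and -0.01, then 0.18, -0.04 and -0.06, then 0.10, -0.21 and -0.11. AKR 25 wk replicate 2 was thus high in element-bearing members while the median gene was near 0 there. In SAMP 25 wk replicate 2 the chaperone median of -0.23 was close to that of all tested genes, -0.21. In SAMP 5 wk replicate 1 both were raised, at 0.30 and 0.18, and in AKR 25 wk replicate 1 they differed, at -0.27 and 0.12.

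Of the 11 element-bearing members, 6 had their highest value in AKR 25 wk replicate 2 and 4 their lowest in SAMP 25 wk replicate 2. Over all tested genes these shares were 18.6% and 34.0%. The first of these libraries is the one with the enterocyte markers above, and the part of enterocyte RNA in the chaperone values was not tested. Without it, the median log2 fold change of the 23 chaperone, folding and translocon genes against AKR 25 wk went from 0.13 to 0.29. The median log2 fold change of the 11 element-bearing members was -0.05 against AKR 25 wk, -0.01 against SAMP 5 wk and -0.03 for SAMP 5 wk against AKR 25 wk. The 24 members with neither form had medians of 0.17, 0.24 and -0.02. No test was made of this difference, and the genes of a list share their libraries.

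**Figure D3:**
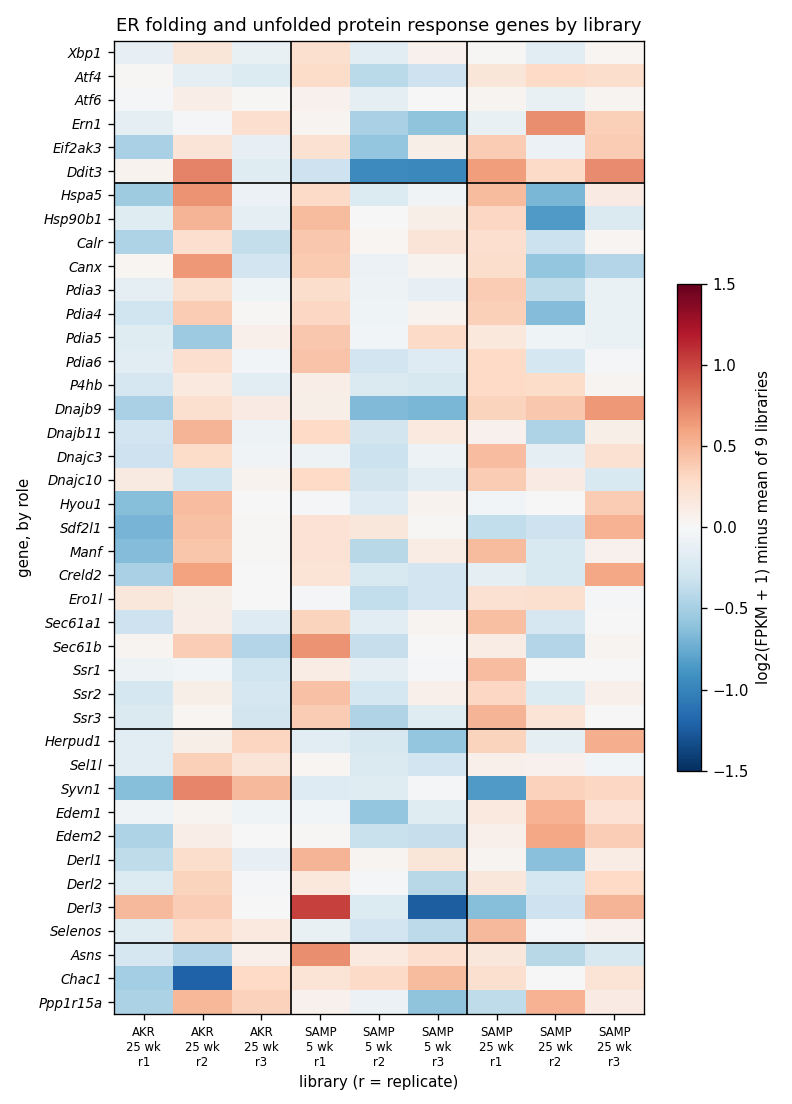
Deviation of log2(FPKM + 1) from the mean of 9 libraries (colour, red higher and blue lower) for the 41 tested genes, in rows by role, and the 9 libraries, in columns by group. Most chaperones are red in AKR 25 wk replicate 2, SAMP 5 wk replicate 1 and SAMP 25 wk replicate 1, with list medians of 0.26, 0.30 and 0.31. Most are blue in AKR 25 wk replicate 1, SAMP 5 wk replicate 2 and SAMP 25 wk replicate 2, with list medians of -0.27, -0.21 and -0.23.

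A further 155 genes of the same pathways, such as regulators, tRNA synthetases, isomerases, coat proteins and ligases, were in the table, and 153 were tested. Against AKR 25 wk 6 were called (3.92%), all higher in SAMP 25 wk, and none was lower. Of all tested genes 2.94% were called, 1.59% higher and 1.35% lower. By list they were 1 of 20 other sensors and regulators, 1 of 29 tested other Atf4 pathway genes, 3 of 35 folding, disulfide and glycosylation genes, 1 of 40 translocation and transport genes and 0 of 29 degradation genes. Against SAMP 5 wk 1 was called (0.654%, where 1.52% of all tested genes were). Between SAMP 5 wk and AKR 25 wk 1 was called (0.654%, where 0.552% of all tested genes were). Their median log2 fold changes in the 3 comparisons were 0.03, 0.02 and 0.02.

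Fkbp11, a peptidyl-prolyl isomerase of the ER, was at 8.47, 11.03 and 9.76 in AKR 25 wk, 14.00, 18.62 and 11.65 in SAMP 5 wk and 26.32, 26.60 and 25.50 in SAMP 25 wk, with no overlap between any groups. Its log2 fold change was 1.34 ± 0.21 (SE, limma adjusted p = 0.00396) against AKR 25 wk. Wars, tryptophanyl-tRNA synthetase, was at 27.40, 23.25 and 29.89, then 61.97, 59.13 and 53.39, then 67.57, 78.44 and 66.43. Both SAMP groups lay above AKR 25 wk, by 1.37 ± 0.19 (adjusted p = 0.00199) at 25 weeks and 1.09 ± 0.19 (adjusted p = 0.0240) at 5 weeks on the log2 scale. The calls of Fkbp11 and Wars between SAMP 25 wk and AKR 25 wk held under all 23 alternatives. These include the looser threshold of 0.1, which cannot end a call. The Wars call at 5 weeks ended under 10, which included leaving out any single AKR 25 wk or SAMP 5 wk library or SAMP 25 wk replicate 3 (adjusted p of 0.0599 to 0.121).

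Creb3l4, a transcription factor anchored in the ER membrane and released by cleavage as Atf6 is, was the gene called against both other groups. It was at 9.93, 7.60 and 10.37 in AKR 25 wk, 10.09, 9.67 and 8.87 in SAMP 5 wk and 19.89, 20.88 and 17.16 in SAMP 25 wk. The SAMP 25 wk libraries lay above the others by 0.99 ± 0.19 (SE, adjusted p = 0.0171) against AKR 25 wk and 0.94 ± 0.19 (adjusted p = 0.0335) against SAMP 5 wk on the log2 scale. Of 23 alternatives, 5 ended the first call and 10 the second, at adjusted p values of up to 0.116 and 0.140. Single libraries ended the first (AKR 25 wk replicates 1 and 2 and SAMP 25 wk replicate 2, adjusted p of 0.0547, 0.0656 and 0.0638) and the second (AKR 25 wk replicates 1 and 3, each SAMP 5 wk replicate and SAMP 25 wk replicates 2 and 3, from 0.0501 to 0.140).

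A pair of enzymes of disulfide formation was higher as well. Qsox1, a sulfhydryl oxidase, was at 11.19, 6.84 and 16.70 in AKR 25 wk, 14.20, 13.08 and 10.43 in SAMP 5 wk and 25.46, 40.71 and 26.59 in SAMP 25 wk (log2 fold change against AKR 25 wk 1.39 ± 0.30, SE, adjusted p = 0.0272). Ero1b, the paralogue of Ero1l, was at 1.75, 1.05 and 1.71, then 3.40, 1.93 and 3.61, then 4.53, 5.06 and 4.89 (1.23 ± 0.24, adjusted p = 0.0187). Ero1l itself was nearly level between these groups, with a log2 fold change of 0.06 ± 0.19 (95% interval -0.35 to 0.47). Tmed3, of the p24 family of cargo receptors between ER and Golgi, was at 18.55, 22.10 and 27.66, then 31.82, 21.78 and 22.23, then 43.03, 68.70 and 43.73 (1.14 ± 0.25, adjusted p = 0.0327). The calls of Qsox1 and Tmed3 ended under 7 and 9 of 23 alternatives and that of Ero1b under 5 of 22. Leaving out AKR 25 wk replicate 2, SAMP 25 wk replicate 2 or SAMP 25 wk replicate 3 ended each of these 3 (adjusted p of 0.0645 to 0.109), AKR 25 wk replicate 1 also ended Qsox1 (0.0873) and Tmed3 (0.140), and SAMP 5 wk replicates 2 and 3 ended Tmed3 (0.0525 and 0.0533).

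Ern2 and Agr2 were read because they belong to mucus-making cells. Ern2, the form of the Ern1 sensor found in mucous epithelium (IRE1 beta), was at 41.47, 22.45 and 34.41 in AKR 25 wk, 38.38, 23.16 and 29.22 in SAMP 5 wk and 54.97, 85.46 and 77.86 in SAMP 25 wk. All SAMP 25 wk libraries lay above all others, yet Ern2 just missed the threshold, at 1.15 ± 0.28 (SE, adjusted p = 0.0508) against AKR 25 wk and 1.24 ± 0.28 (adjusted p = 0.0517) against SAMP 5 wk on the log2 scale. Agr2, a disulfide isomerase needed for Muc2, was far higher than any member, at 1770.3 ± 85.1 in AKR 25 wk, 1723 ± 741 in SAMP 5 wk and 1768 ± 557 in SAMP 25 wk (SD, n = 3 each), and its log2 fold changes were -0.05 ± 0.36 and 0.07 ± 0.36.

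**Figure D4:**
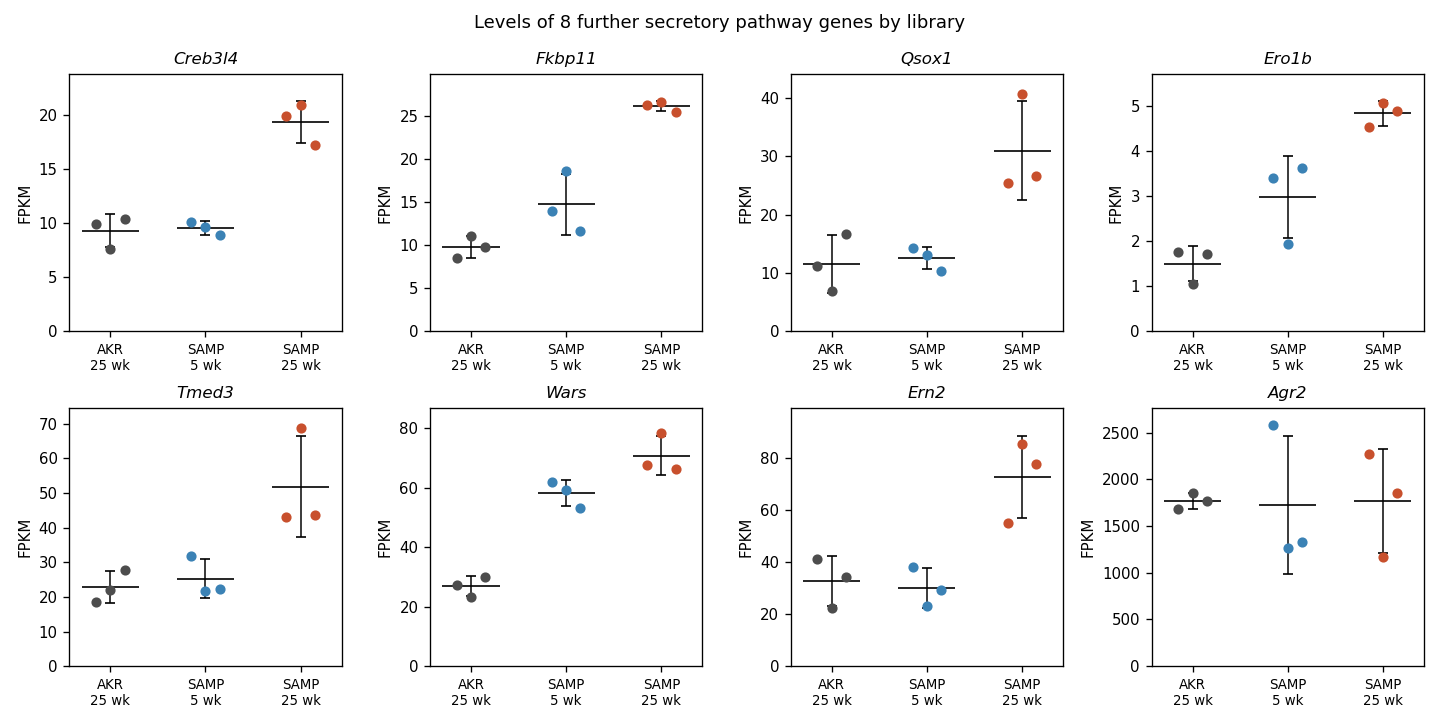
FPKM (vertical axis, from 0) of 8 further secretory pathway genes in each library of the 3 groups. Dots are libraries, lines are group means and bars are 1 SD over 3 libraries. Creb3l4, Fkbp11, Qsox1, Ero1b, Tmed3 and Ern2 are higher in every SAMP 25 wk library than in any other library, Wars is high in both SAMP groups, and the Agr2 means lie between 1723 and 1770.3.

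Markers of several cell types of the niche were called in the same comparisons, some higher and some lower. The summed FPKM of 10 goblet cell markers spanned 4843.5 to 7478.88 in AKR 25 wk, then 3615.26 to 7207.03 in SAMP 5 wk, then 13183.6 to 18161.2 in SAMP 25 wk, with 5 called higher and 3 lower against AKR 25 wk and 4 higher and 2 lower against SAMP 5 wk. Against AKR 25 wk Clca1, Klk1, Muc2, Spdef and Spink4 were higher, and Fcgbp, Tff3 and Zg16 were lower. Most of the sum was Spink4 in SAMP 25 wk, and without it, a choice made after the values were seen, the sums spanned 2577.02 to 5779.68, 1789.85 to 3271.3 and 3826.32 to 5908.7, so that SAMP 25 wk overlapped AKR 25 wk and lay above SAMP 5 wk. None of the 10 was at 0 in any library. The sum of 8 Paneth cell markers was 36339.1 to 84847.4, 44119.1 to 58252.4 and 74378.8 to 119242, with 3 called higher and 1 lower against AKR 25 wk, 2 higher against SAMP 5 wk, and none at 0. These markers went both ways. Mean Lyz1 was 25940 in AKR 25 wk, 23497 in SAMP 5 wk and 7532 in SAMP 25 wk. Defa22 means were 9983, 204 and 150 in that order. Ang4, Itln1, Defa17, Defa24 and Defa26 had their highest means in SAMP 25 wk, and Mmp7 in SAMP 5 wk. Tuft cell markers summed to 6.35 to 15.88, 12.26 to 20.18 and 47.41 to 51.04, with 6 of 6 called higher against AKR 25 wk and 3 against SAMP 5 wk. Macrophage and dendritic cell markers summed to 29.07 to 48.06, 39.62 to 58.78 and 20.01 to 21.14, with 2 of 6 called lower in both comparisons. Smooth muscle markers summed to 37.63 to 94.06, 30.89 to 87.76 and 104.29 to 121.72, with none of 6 called. The part of these cell types in the values of Creb3l4, Fkbp11, Qsox1, Ero1b, Tmed3, Ern2 and Ddit3 was not tested. None of the 41 tested members was called against AKR 25 wk, where 2.94% of all tested genes were. With 41 genes this does not set the members apart from that share. Under alternatives, 1 member was called with quantile normalization and 7 with library weights.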

How the data were processed

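The strain and age labels gave the groups. Replicate numbers follow accession order and pair no samples. The authors deposited FPKM values in 1 table, per the file headers. Trimmomatic, STAR, HTSeq, DESeq2 and GRCm38 are named in the submitters' processing notes, without versions or order, and which tool made the FPKM is not given in the sources used here. A note on cultured crypts in the labels' protocols is not explained there. Of the rows, 18155 took a gene name by gene number and 10 by transcript from RefSeq (GRCm38.p6), leaving 55 without one. Promoter sequences are RefSeq's for that build.

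Genes averaging an FPKM of 1 or more were fitted in limma 3.58.1 (R 4.3.3) as log2(FPKM + 1). A single model of 3 group means took all 9 libraries, with a variance trend, 6 residual degrees of freedom and Benjamini-Hochberg adjustment over all 11775 genes of a comparison. Intervals are 95% and come from the moderated fit. The code was tested on simulated data. Depth was estimated from 9221 single-transcript genes: the share of low values that came within 0.2 of a whole read was 74.8% to 79.9%, where chance gives 40%. Reads could therefore not be recovered, and no count test was run.

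The members, lists, alternatives and tests were chosen with earlier results of these data known. Values in every library are given for called members, for a fixed set of sensors, chaperones, degradation genes and Atf4 targets, and for the 2 members of each role list with the largest log2 fold change in each comparison. Other pathway genes were named when called, with Ern2 and Agr2 added. Values of Edem1, Selenos, Ssr1 and Ero1l are given because their libraries did not overlap, which was seen first. Alternatives were pseudocounts of 0.1 and 5, no minimum and a minimum mean of 5, TPM, quantile normalization, equal medians, rescaling without ribosomal RNA and alpha-defensin rows, only the libraries of both groups compared, variances without a trend or robust, weighted libraries, a threshold of 0.1, each library left out, and AKR 25 wk replicate 2 and SAMP 25 wk replicate 3 left out together. The threshold of 0.1 is counted among the alternatives of each call, though it cannot end a call. Tables and figures used Python 3.11.15, pandas 2.3.3 and matplotlib 3.10.9.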

Additional observations from a re-analysis of the deposited data

How the results depend on the processing

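Over the 21 members named with tests, 1440 results were obtained under the alternatives run. Of these, 1415 stayed on the same side of the threshold, 12 lost and 13 gained a call. None that was called changed sign (0 reversed), though 108 that were not called did. For 8 other pathway genes the numbers were 549, 470, 46, 33, 0 and 21 in the same order. Among the members only Ddit3 against SAMP 5 wk was called as reported, so most results were uncalled genes that stayed uncalled. Some alternatives cannot change a fold change: the variance settings, only the groups compared, the threshold of 0.1, and libraries left out of the group not compared. The counts therefore do not measure how stable the fold changes were. The number of members called against AKR 25 wk, 0 as reported, was 1 with quantile normalization (Ssr3) and 7 with library weights (Creld2, Ddit3, Dnajb9, Edem2, Eif2ak3, Hyou1 and Sdf2l1, all higher), a setting that raised the calls among all genes from 346 to 2514. Against SAMP 5 wk, 1 as reported, it was 0 with a pseudocount of 5, no minimum, a minimum mean of 5, TPM, no variance trend, or both unusual libraries left out, 3 with quantile normalization, 8 with library weights (7 higher, 1 lower) and 0 to 1 with a library left out. Between SAMP 5 wk and AKR 25 wk it was 0 under all alternatives run. Of the other pathway genes, the 6 called against AKR 25 wk became 3 with no minimum or only the groups compared, 11 with quantile normalization, 28 with library weights (18 higher, 10 lower), 2 without both unusual libraries and 2 to 8 with a library left out. They were 8 with equal medians and 7 with a minimum mean of 5 or robust variances. Rescaling without ribosomal RNA and defensin rows gave 7 (6 higher and Mogs lower), and a threshold of 0.1 gave 9 (8 higher, 1 lower). Against SAMP 5 wk the 1 became 0 with no minimum or without both unusual libraries, 2 with TPM or robust variances, 4 rescaled without ribosomal RNA and defensin rows, 5 with quantile normalization or equal medians, 24 with library weights (17 higher, 7 lower), 6 at a threshold of 0.1 and 0 to 6 with a library left out. Between SAMP 5 wk and AKR 25 wk the 1 became 0 with quantile normalization, without ribosomal RNA and defensin rows or without both unusual libraries, and 0 to 1 with a library left out. The causes were not tested. Of 264 role list medians under alternatives, 18 moved by more than their spread and 20 changed sign. The median of all genes for SAMP 25 wk against AKR 25 wk ranged with the scaling from -0.31 to -0.00. No paired analysis was possible because the labels give no replicate numbers that match samples across groups.

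With 3 libraries a group and no counts deposited, a difference of less than about the widths of the printed intervals was not detectable, and genes near an FPKM of 1, such as Ppp1r15a and Trib3, rested on few reads. A result of a library left out assumes, where it leaves 2, that they vary like the other groups.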

Other observations

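In SAMP 25 wk replicate 2 the ratio of FPKM of P4hb to Hsp90b1 was 1.26 against 0.445 to 0.689 in the other 8 libraries and that of Ssr3 to Hsp90b1 was 0.920 against 0.316 to 0.516. The ratio of Ddit3 to Atf4 was 0.0303 to 0.0359 in SAMP 5 wk, 0.0559 to 0.111 in AKR 25 wk and 0.0577 to 0.0816 in SAMP 25 wk, so that SAMP 5 wk lay below all other libraries. These ratios were chosen after the values were seen, FPKM being compared per length within a library, and carry no test.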
